A study of Mus musculus with 19 samples.

Results

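The opioid receptor family was followed here as 5 genes in the striatum of HD knock-in (KI) mice. These genes are Oprd1, Oprl1, Oprk1 and Oprm1, which encode the delta opioid, nociceptin, kappa opioid and mu opioid receptors, and Pnoc, which encodes the precursor of nociceptin. They were chosen by name, all 5 were found among the 54232 genes counted, and all 5 were among the 18521 genes with enough reads to be tested. None of the 5 genes passed the adjusted threshold of 0.05 in any comparison of genotypes, and the clearest differences were those between genes and between single mice of the same genotype.

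The RNA came from dissected striatum of 6-month-old mice whose strain background is labelled C57/BL/6, from 7 wild type (WT) mice and 4 mice of each of the genotypes KI-FL, KI-571 and KI-96. KI-FL mice carry the HD140Q allele, in which the mouse Htt gene holds an expanded polyQ repeat, and express mutant huntingtin in full length. In KI-96 and KI-571 mice that allele was in addition cut with CRISPR/Cas9, so that only an N-terminal fragment is made, the shorter one in KI-96. The expanded repeat is therefore shared by all KI mice and absent from WT mice, and the truncations are from edited founder lines that were studied as heterozygotes, with a normal Htt allele beside the mutant one. The study's methods state a smaller group size than the WT samples hold, and which WT samples it used is not given in the sources used here. The labels give neither sex nor sacrifice batch, so that a batch could not be fitted or told apart from genotype. They do not say in words that each sample is a separate animal, and the p-values measure the spread between these samples.

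Opioid receptors are G protein-coupled receptors. They act through Gi/o proteins, which inhibit adenylyl cyclase, open inwardly rectifying potassium channels and restrain presynaptic calcium channels. Enkephalins, cut from the Penk product, act mainly on delta and mu receptors, dynorphins from Pdyn on the kappa receptor, and nociceptin on its own receptor, which binds the classical opioid peptides poorly. In the striatum, Penk marks the projection neurons of the indirect pathway and Pdyn those of the direct pathway, and mu receptors are concentrated in the patches called striosomes.

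In the annotation of mouse build GRCm38, Oprd1 lies at chr4:132110726-132144486 on the minus strand, Oprl1 at chr2:181715016-181720985 on the plus strand, Oprk1 at chr1:5588466-5606131 on the plus strand, Oprm1 at chr10:6758506-7038198 on the plus strand and Pnoc at chr14:65400673-65425472 on the minus strand. All 5 are protein-coding. Oprm1 is the most complex of them, with 22 exon blocks and 31 annotated transcripts. Its exons share 96 bases (1.19% of its exon bases) with Ipcef1 on the other strand, and the other gene that overlaps it, Gm10945, shares 0 exon bases with it. Because the strand setting of the counting is not given in the sources used here, reads in these shared bases cannot be told apart.

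Promoter sequences were given by RefSeq (GRCm38.p6) for 3 of the 5 genes, as windows from 250 bases before to 50 bases after a transcription start. Oprd1 and Oprm1 are shown because Oprd1 was above Oprm1 per length in every mouse, and because their windows are unlike in composition. Oprk1 and Pnoc had no entry. Each sequence is written 5′ to 3′ on the strand of the gene, up to the first annotated start in the window, and capitals mark CpG dinucleotides. The Oprd1 stretch is chr4:132144487-132144736 on the minus strand and the Oprm1 stretch is chr10:6758343-6758505 on the plus strand.
Oprd1: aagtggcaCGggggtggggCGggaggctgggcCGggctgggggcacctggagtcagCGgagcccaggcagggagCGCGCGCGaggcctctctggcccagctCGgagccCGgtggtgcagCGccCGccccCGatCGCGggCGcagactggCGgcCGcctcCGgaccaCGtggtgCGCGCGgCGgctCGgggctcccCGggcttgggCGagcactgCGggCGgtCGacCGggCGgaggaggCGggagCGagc
Oprm1: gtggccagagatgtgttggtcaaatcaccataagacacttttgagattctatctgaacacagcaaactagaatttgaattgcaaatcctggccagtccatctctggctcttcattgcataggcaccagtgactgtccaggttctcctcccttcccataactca
The 250 bases before the Oprd1 start held 34 CpG, and the 163 bases before the first Oprm1 start held 0. In the whole windows, GC content was 79.3% with 43 CpG for Oprd1 and 47.3% with 3 CpG for Oprm1, against medians of 52.7% and 7 over the windows of 27025 genes. The Oprd1 window was above 98.8% of these genes in GC content and above 97.5% in CpG number. The Oprl1 window (chr2:181715440-181715739, plus strand) had 49.7% GC and 2 CpG. The Oprd1 window held GGGCGG, read on both strands, 4 times, and 35.9% of the genes' windows held it at least once. Oprm1 has several annotated starts, and 5 of its 17 coding transcripts in the basic annotation begin in the window shown. Its other windows lie downstream, at chr10:6788320-6788619 and chr10:6788326-6788625. They had 52.0% and 52.3% GC with 4 and 5 CpG, so that the stretch shown does not stand for every Oprm1 promoter. These are descriptions of sequence, and binding or methylation was not measured.

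Read totals on genes ranged from 12669809 to 26388542 per mouse (median 18202412), so that 3 counts correspond to between 0.106 and 0.238 CPM (counts per 1000000 counts on genes), a limit that covers counting error only. The striatal projection neuron markers (Drd1, Drd2, Adora2a and 7 others) summed to between 4560 and 7810 CPM and 0 of the 10 markers were at 0 in any mouse. KI-FL replicate 4 stood apart, with 3186 of the tested genes at 0 against 10 to 222 in the other mice. Htt itself was at 178 ± 9.80 CPM in WT, 186 ± 40.1 in KI-96, 124 ± 15.3 in KI-571 and 158 ± 17.5 in KI-FL mice (SD; adjusted p = 0.0959 for KI-571 against WT). Markers of neighbouring tissue varied: cortical excitatory neuron markers summed to 1030 CPM in WT replicate 3 and 416 CPM in KI-571 replicate 2 against 12 to 117 CPM in the KI-96 and KI-FL mice, and choroid plexus markers summed to 5300 and 5070 CPM in KI-571 replicates 4 and 2 and to 3010 CPM in KI-FL replicate 1, against 35.6 to 405 CPM in the other mice. Of the sex-linked genes, Kdm5d, Eif2s3y, Ddx3y and Uty were lower in KI-96 than in WT mice (adjusted p = 0.0205, 0.0378, 0.0378 and 0.0417). Xist was at 886 to 1610 CPM in all 4 KI-96 mice, where Kdm5d was at most at 0.131 CPM, and otherwise as high only in WT replicate 1 (1060 CPM) and KI-FL replicate 2 (1210 CPM), while all 4 KI-571 mice had 0.913 to 5.05 CPM of Xist. The labels give no sex, but the KI-96 genotype went with this sex-linked pattern against 6 of 7 WT mice and against every KI-571 mouse, so that the part of sex and that of genotype cannot be told apart between KI-96 and KI-571 and are told apart against WT by a single WT mouse. With the Xist level added to the model, 0 of the 5 genes passed in any comparison. In bulk tissue, fewer cells of a type and less RNA per cell cannot be told apart.

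Levels can be compared between genes only per length. As RPKM, the CPM per kilobase of exon, with every annotated exon counted in the length, WT mice had 9.10 ± 1.05 RPKM of Oprd1, 7.98 ± 1.38 of Oprl1, 3.88 ± 0.842 of Oprk1, 1.56 ± 0.752 of Pnoc and 0.589 ± 0.209 of Oprm1 (mean ± SD, n = 7). Among all tested genes, these levels were at percentiles 72.6, 69.5, 52.4, 34.8 and 19. The receptor genes were thus spread from the upper to the lower part of the expressed range, and neighbours at either end of the order overlapped. Oprd1 (7.76 to 10.7 RPKM) overlapped Oprl1 (5.78 to 10.2), and Pnoc (0.297 to 2.50) overlapped Oprm1 (0.25 to 0.833), whereas Oprk1 (2.74 to 5.43) overlapped neither of its neighbours in WT mice. Within single mice, Oprl1 was above Oprk1 in 19 of 19 and Oprd1 above Oprl1 in 14 of 19, with a ratio between 0.757 and 1.70. Oprk1 was above Pnoc in 18 of 19 mice, the exception being KI-96 replicate 4, and Pnoc was above Oprm1 in 12 of 19.

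The order depended on which length was used. The annotated exons of Oprm1 and Oprk1 together (8037 and 9151 bases) are far longer than their single transcripts. With the mean length of the basic coding transcripts (1615 bases for Oprm1, 2844 for Oprk1, 2275 for Oprl1, 4021 for Oprd1 and 1772 for Pnoc) the WT levels were 13.2 ± 2.28 RPKM for Oprl1, 12.5 ± 2.71 for Oprk1, 9.10 ± 1.05 for Oprd1, 2.93 ± 1.04 for Oprm1 and 1.90 ± 0.915 for Pnoc. This length was added after the data had been seen. With it, Oprl1 and Oprk1 came before Oprd1, and Pnoc rather than Oprm1 came last. Oprd1 was above Oprl1 in 2 of 19 mice, Oprk1 above Oprd1 in 14 of 19, Oprl1 above Oprk1 in 11 of 19 and Oprm1 above Pnoc in 16 of 19. Under both lengths Oprm1 was the lowest of the 4 receptor genes in all 19 mice. Which transcripts were present cannot be read from gene counts, so that the order of Oprd1, Oprl1 and Oprk1 was not settled.

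**Figure D1:**
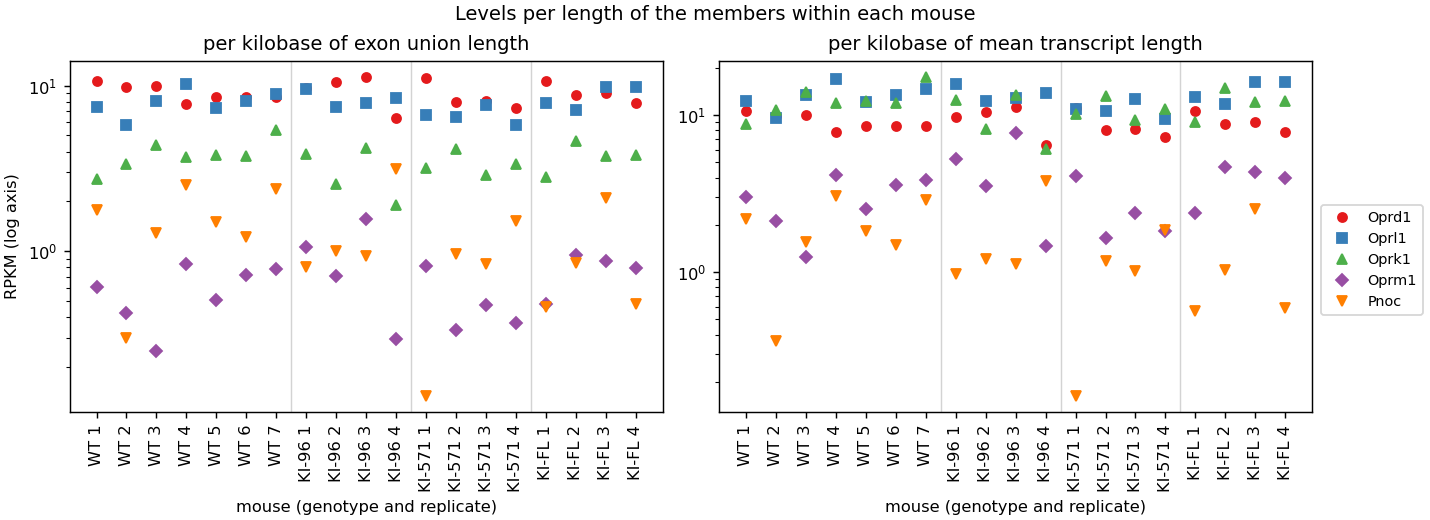
Level per length of the 5 genes in each of the 19 mice (1 column per mouse, RPKM on a log axis), with the length of all annotated exons on the left and the mean length of the basic coding transcripts on the right. Oprm1 lies below the other 3 receptor genes in every column of both panels, and the order of Oprd1, Oprl1 and Oprk1 differs between the panels.

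The peptide precursors covered a wider range than the receptors. With all annotated exons, WT mice had 552 ± 102 RPKM of Penk, 45.9 ± 12.1 of Pdyn, 1.56 ± 0.752 of Pnoc and 1.40 ± 0.406 of Pomc, the precursor of beta-endorphin. Among the tested genes, Penk was at percentile 99.9, Pdyn at 95.3 and Pomc at 33. The nociceptin precursor was thus close to Pomc, and its receptor Oprl1 was above it in 19 of 19 mice, whereas the precursors of enkephalin and dynorphin were far above the receptors they serve.

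Each KI genotype was then compared with WT to ask whether the receptor genes or Pnoc change with full-length or truncated mutant huntingtin. None of the 5 genes passed in any of the 3 comparisons, taken from here on in the order KI-96, KI-571, KI-FL (0 of 5 in each by edgeR, 0 of 5 at an unadjusted p under 0.05, and 0 of 5 by DESeq2). Among all tested genes, 0.027%, 0.0324% and 0.194% passed the adjusted threshold in these comparisons and 7.45%, 7.72% and 16.7% had an unadjusted p under 0.05. At backgrounds this low, a count of 0 of 5 does not set these genes apart from the rest. The lowest adjusted p of the 5 genes was 0.56, and the lowest unadjusted p was 0.0596. With the mean of the 3 KI genotypes against WT, 0 of 5 passed as well (0.054% of all genes), also at an unadjusted p under 0.05 (12.9%).

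Oprd1, the delta receptor gene, had small fold changes in all of these comparisons. It ranged from 31.2 to 43.0 CPM in the 7 WT mice (median 34.4), and it was at 39.0, 42.1, 45.3 and 25.8 CPM in KI-96 mice, 44.4, 32.1, 32.6 and 29.3 CPM in KI-571 mice and 42.6, 35.3, 36.4 and 31.5 CPM in KI-FL mice. All groups overlapped. KI-96 replicate 4 and KI-571 replicate 4 lay below the WT range, and KI-96 replicate 3 and KI-571 replicate 1 lay above it. The log2 fold changes against WT were 0.06 (95% interval -0.24 to 0.35), -0.08 (-0.37 to 0.21) and -0.00498 (-0.30 to 0.29) for the 3 KI genotypes in order, with adjusted p = 0.96, 0.971 and 0.991. As folds, the 3 intervals together ran from 0.773 to 1.27, so that larger changes of this gene lay outside them.

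Oprl1, the nociceptin receptor gene, ranged from 21.7 to 38.5 CPM in WT mice (median 30.4). It was at 35.7, 27.9, 29.4 and 31.4 CPM in KI-96 mice, 25, 24.2, 28.8 and 21.6 CPM in KI-571 mice and 29.6, 26.8, 36.8 and 36.7 CPM in KI-FL mice. All 4 KI-571 mice were below the WT median, but they stayed within the WT range except for the lowest one, which was just below it. The log2 fold change in KI-571 against WT was -0.27 with an SE of 0.13 (0.832-fold, 95% interval 0.686 to 1.01), and it did not pass (adjusted p = 0.677). KI-571 replicates 4 and 2, the KI-571 mice with the least Oprl1 (21.6 and 24.2 CPM), were also those with the most choroid plexus markers. KI-FL replicate 1, where these markers were high as well (3010 CPM), had 29.6 CPM of Oprl1, close to the WT median. All 4 choroid plexus markers had a higher level in KI-571 than in WT mice at an unadjusted p under 0.05, and 0 of 4 passed the adjusted threshold. Over the 19 mice, Oprl1 varied against these markers without passing (r = -0.549, rho = -0.582, adjusted permutation p = 0.0962 and 0.0791), and the part of choroid plexus in the Oprl1 level was not tested. In KI-96 and KI-FL mice the log2 fold change was 0.05 and 0.12 (adjusted p = 0.959 and 0.67).

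Oprk1, the kappa receptor gene, ranged from 25.1 to 49.7 CPM in WT mice (median 34.2). The values were 35.3, 23.2, 38.3 and 17.3 CPM in KI-96, 29.0, 37.8, 26.5 and 30.9 CPM in KI-571 and 25.6, 42.3, 34.6 and 34.9 CPM in KI-FL mice. KI-96 mice were split, with 2 of 4 within the middle of the WT range and 2 of 4 below it. The log2 fold change was -0.32 with an SE of 0.20 in KI-96 mice (0.8-fold, 95% interval 0.604 to 1.06, adjusted p = 0.739) and -0.14 when KI-96 replicate 4 was left out. In KI-571 and KI-FL mice it was -0.20 and -0.05 (adjusted p = 0.932 and 0.913).

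Oprm1, the mu receptor gene, had few reads, between 34 and 231 per mouse, and it differed more between mice. It ranged from 2.01 to 6.70 CPM in WT mice (median 4.87). It was at 8.51, 5.69, 12.5 and 2.36 CPM in KI-96 mice, 6.58, 2.68, 3.83 and 2.95 CPM in KI-571 mice and 3.85, 7.60, 6.97 and 6.40 CPM in KI-FL mice. The highest value of all, in KI-96 replicate 3, was 6.24 times the lowest, in WT replicate 3, and the KI-96 group held both high and low mice. KI-96 replicate 3 also had the largest share of reads outside annotated genes (24.2%), and the part of this in its Oprm1 value was not tested.

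The log2 fold change of Oprm1 in KI-96 against WT was 0.61 with an SE of 0.36 (1.53-fold, 95% interval 0.912 to 2.56, adjusted p = 0.723). It was 0.20 without KI-96 replicate 3 and 0.91 without KI-96 replicate 4 (adjusted p = 0.256), so that its size rested on single mice. The 6 striosome markers (Kremen1, Lypd1, Sema5b, Tshz1, Foxf2 and Bach2) were also above WT in KI-96 mice (6 of 6 log2 fold changes above 0, median 0.27 against -0.02 over all genes, 2 of 6 at an unadjusted p under 0.05 and 0 of 6 past the adjusted threshold). The other KI genotypes did not show this parallel with Oprm1. In KI-571 mice, 5 of 6 were above 0 (median 0.13). In KI-FL mice, 4 of 6 were above 0 (median 0.02) and 1 of 6 was lower at an unadjusted p under 0.05. The 6 markers summed to 269 CPM in KI-96 replicate 3, the mouse with the most Oprm1, and to between 140 and 208 CPM in the others. Tshz1 alone made up 138 of these 269 CPM. The mean log2 CPM of the list, used for the correlations, was 4.59 in this mouse and 4.60 in KI-96 replicate 2. Over the 19 mice, r of Oprm1 with the striosome markers was 0.289 (rho = 0.332, adjusted permutation p = 0.679 and 0.57), and their part in the difference was not tested. In KI-571 and KI-FL mice it was -0.24 and 0.39 (SE 0.37 and 0.36, adjusted p = 0.964 and 0.607). Their intervals reach from 0.498-fold to 2.20-fold, so that changes within that range were not excluded.

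**Figure D2:**
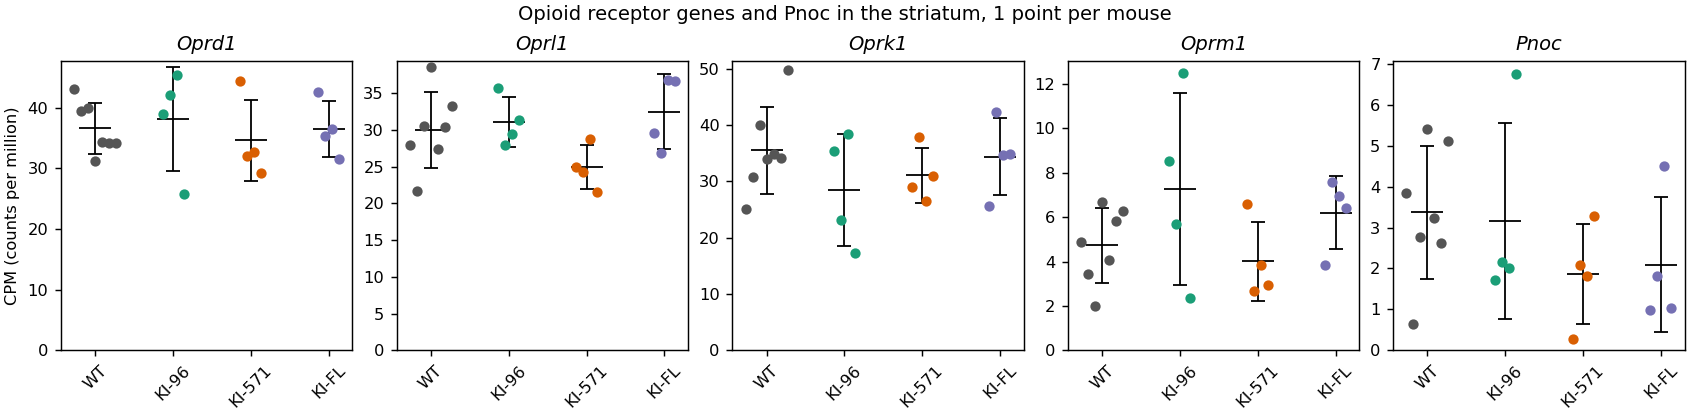
CPM of the 4 receptor genes and Pnoc in each mouse (1 point per mouse, 1 panel per gene with its own linear axis from 0), by genotype, with the mean (long bar) and SD (error bar) of 7 WT mice and 4 mice of each KI genotype. The genotypes overlap in every panel, and the KI-96 point at 6.74 CPM in the Pnoc panel lies apart from the other 3 at 1.73 to 2.16.

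Pnoc, the nociceptin precursor gene, was the most variable of the 5 genes. It ranged from 0.641 to 5.40 CPM in WT mice (median 3.23). It was at 1.73, 2.16, 2.01 and 6.74 CPM in KI-96, 0.288, 2.08, 1.81 and 3.28 CPM in KI-571 and 0.996, 1.82, 4.50 and 1.04 CPM in KI-FL mice, from as few as 6 reads in KI-571 replicate 1 to 163 in KI-96 replicate 4. In each KI genotype, 3 of 4 mice were below the WT median and 1 was above it. The log2 fold changes against WT were -0.08, -0.86 and -0.67 (SE 0.54, 0.57 and 0.57, adjusted p = 0.984, 0.811 and 0.56), and the interval in KI-571 mice ran from 0.242-fold to 1.25-fold. Without KI-FL replicate 3, the mouse with the most Pnoc in its group, the change in KI-FL mice was -1.41 (adjusted p = 0.263), and without KI-FL replicate 4 it was -0.445. Without KI-571 replicate 1 the change in KI-571 mice was -0.50 (adjusted p = 0.999). Without KI-96 replicate 4, the change in KI-96 mice was -0.78 (adjusted p = 0.61), between the values of the other KI genotypes.

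**Figure D3:**
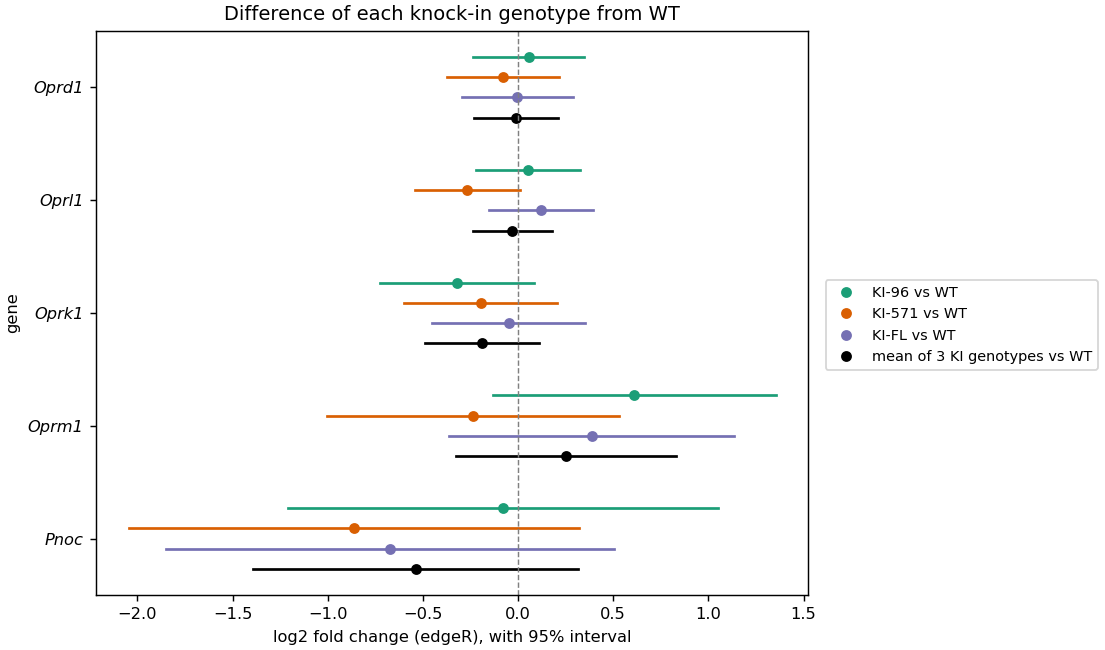
Log2 fold change of each gene (rows) in each KI genotype and in the mean of the 3 KI genotypes against WT, by edgeR, with 95% intervals. All 20 intervals cross 0, and those of Oprd1 and Oprl1 are the narrowest and those of Pnoc the widest.

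The precision of these comparisons followed from the spread between mice. The biological coefficient of variation that edgeR estimated was 0.161 for Oprd1, 0.152 for Oprl1, 0.217 for Oprk1, 0.402 for Oprm1 and 0.598 for Pnoc, against 0.24 in common for all genes. Within genotypes, the SD of log2 CPM was 0.239 for Oprd1, 0.217 for Oprl1, 0.348 for Oprk1, 0.668 for Oprm1 and 1.04 for Pnoc, while the median over all tested genes was 0.297. Pnoc was more variable than 94.7% of the tested genes. Oprd1 and Oprl1 were at percentiles 38.2 and 32.8 of this spread.

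The KI genotypes were also compared with each other, which asks whether truncation of the mutant protein matters for these genes. With 4 mice against 4, 0 of 5 genes passed the adjusted threshold in each of the 3 comparisons by edgeR, and 0 of 5 by DESeq2 (background 0.0054% of genes in KI-96 against KI-571, 0% in KI-96 against KI-FL and 0.0864% in KI-571 against KI-FL). At an unadjusted p under 0.05, 1 of 5 was found in KI-96 against KI-571 (5.51% of all genes), 0 of 5 in KI-96 against KI-FL (8.9%) and 1 of 5 in KI-571 against KI-FL (8.9%), and it was Oprl1 both times. Oprl1 was lower in KI-571 than in KI-FL mice by a log2 fold change of -0.38 with an SE of 0.15 (0.766-fold, 95% interval 0.617 to 0.951, adjusted p = 0.468). It was 1.25-fold as high in KI-96 as in KI-571 mice (95% interval 1.01 to 1.55, adjusted p = 0.9). Both contrasts use the same 4 KI-571 mice and fail the correction over all genes.

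Among the other 4 genes, the largest direct difference was that of Oprm1, which was 1.80-fold as high in KI-96 as in KI-571 mice (95% interval 0.991 to 3.27, adjusted p = 0.909). Pnoc was 1.72-fold as high in the same contrast, with an interval from 0.697 to 4.25. The Oprm1 log2 difference was 0.85, and 0.44 without KI-96 replicate 3. The Pnoc log2 difference fell from 0.78 to 0.08 when KI-96 replicate 4 was left out. All 4 KI-96 mice had the sex-linked pattern described above and no KI-571 mouse did, and truncation and sex cannot be told apart in this contrast. Oprd1 differed by at most 1.10-fold between KI genotypes, and its 3 intervals lay between 0.756-fold and 1.38-fold.

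The ranges of CPM overlapped in 30 of 30 pairs of a gene and 2 genotypes. Groups without overlap were found for 1.24%, 1.55% and 5.29% of all genes in the 3 comparisons with WT, and for 2.85%, 3.16% and 4.32% in KI-96 against KI-571, KI-96 against KI-FL and KI-571 against KI-FL. In KI-571 mice, the fold changes of all 5 genes against WT were below 0 (median -0.24 on the log2 scale, against -0.00900 over all tested genes), in KI-96 mice 3 of 5 were above 0 and in KI-FL mice 2 of 5. Over all tested genes, 48.3% were above 0 in KI-571, 47.2% in KI-96 and 46.1% in KI-FL mice. None of the 5 genes was called, and the comparisons share their WT mice.

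The other opioid precursors did not pass either. Penk ranged from 715 to 1170 CPM in WT mice (median 917) and was at 815, 989, 335 and 633 CPM in KI-96, 809, 673, 878 and 854 CPM in KI-571 and 719, 790, 741 and 734 CPM in KI-FL mice. The 4 KI-FL mice lay close together in the lower part of the WT range, and KI-96 replicate 3 was the lowest mouse. Its log2 fold changes against WT were -0.38, -0.17 and -0.27 (SE 0.20, 0.19 and 0.19, adjusted p = 0.689, 0.951 and 0.483). Pdyn was at 132 ± 35.0 CPM in WT, 144 ± 34.7 in KI-96, 122 ± 16.5 in KI-571 and 170 ± 34.4 in KI-FL mice, with a log2 fold change of 0.36 in KI-FL mice (SE 0.18, adjusted p = 0.328). Pomc stayed between 1.5 and 1.96 CPM in the group means.

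In all, 51 other genes of the pathway were listed by role, with the 3 precursors Penk, Pdyn and Pomc among them, and all 51 were tested. In each of the 3 comparisons with WT and each of the 3 direct comparisons of KI genotypes, 0 of 51 passed the adjusted threshold by edgeR. At an unadjusted p under 0.05, 3 genes lay above WT and 1 below in KI-96, 1 above and 2 below in KI-571, and 2 above and 3 below in KI-FL. These are 7.84%, 5.88% and 9.8% of the list, and the shares of all genes given above were 7.45%, 7.72% and 16.7%. The median log2 fold change of the 51 genes was 0.01, -0.05 and 0.07 in the 3 comparisons with WT, against -0.02, -0.00900 and -0.03 over all tested genes.

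In each list of the pathway, the gene with the smallest p against WT was as follows. Among 6 peptide processing enzymes it was Pam, which amidates peptide ends, with a log2 fold change of 0.39 in KI-FL mice (SE 0.14, adjusted p = 0.167). Among 4 peptide-degrading enzymes it was Mme, the neprilysin gene, whose product cleaves enkephalins, with 0.42 in KI-FL mice (SE 0.18, adjusted p = 0.246). Neither passed, and the values only rank these genes within their lists.

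Further down the pathway the picture was similar. Among 12 Gi/o protein subunit genes it was Gnb4, a beta subunit gene that is also on the claustrum marker list, with -0.40 in KI-571 mice (SE 0.13, adjusted p = 0.342). Among 11 effector genes it was Adcy1, an adenylyl cyclase, with -0.43 in KI-FL mice (SE 0.18, adjusted p = 0.239). Among 15 receptor regulators it was Grk3, a kinase that phosphorylates activated receptors, with -0.47 in KI-FL mice (0.72-fold, SE 0.15), and its adjusted p of 0.131 was the lowest of the 51 genes in all comparisons.

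**Figure D4:**
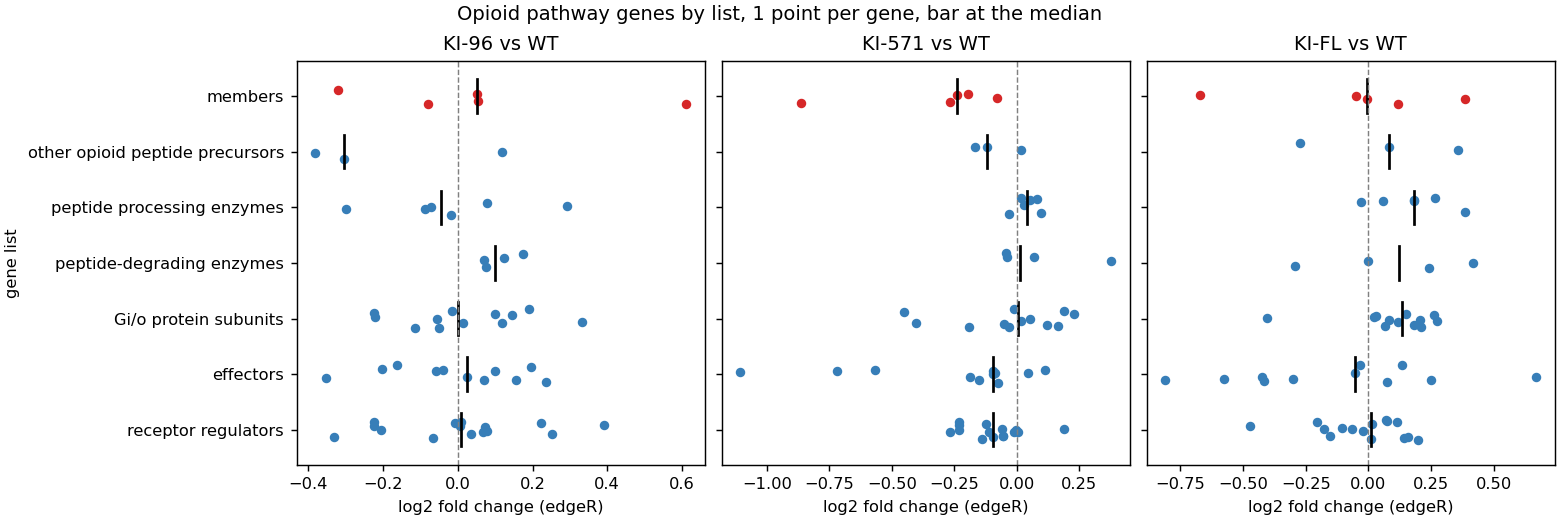
Log2 fold change against WT of the 5 genes (red, row "members") and of the 51 other pathway genes by list (blue), 1 point per gene, 1 panel per KI genotype with its own axis, and a black bar at the median of each list. Points lie on both sides of 0 in most lists, and 0 of these genes passed the adjusted threshold.

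Because none of the 5 genes passed between genotypes, the variation between mice was examined with the genotype means removed from log2 CPM. The permutations ran over all 19 mice and did not allow for the removed means, so that these p-values tend to be too low. Of the 10 pairs of the 5 genes, 1 passed after adjustment over the pairs, and with this limit its pass is not secure. Oprd1 and Pnoc moved in opposite directions over the 19 mice (Pearson r = -0.642, permutation p = 0.003, adjusted p = 0.03), while the rank correlation missed the threshold after adjustment (Spearman rho = -0.582, permutation p = 0.00988, adjusted p = 0.0988). Without KI-96 replicate 4 and KI-571 replicate 1, the mice farthest from the median of Oprd1, r was -0.452 (permutation p = 0.0674), so that the relation at this threshold rested on these mice. Without KI-FL replicate 4, the mouse with many genes at 0, both measures passed (r = -0.726, rho = -0.676, adjusted permutation p = 0.0051 and 0.0221). With the genotype means kept, it was -0.514 and no longer passed (adjusted permutation p = 0.238). Oprm1 and Oprk1 had the next highest value (r = 0.495, rho = 0.411, permutation p = 0.031 and 0.0832, adjusted p = 0.155 and 0.416; r = 0.477 without the farthest mice), and the nociceptin receptor and precursor genes, Oprl1 and Pnoc, did not pass either (r = 0.38, rho = 0.274, permutation p = 0.108 and 0.254, adjusted p = 0.297 and 0.508; r = 0.0287 without the farthest mice).

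The same deviations were set against the mean log2 CPM of 13 marker lists (cell types, neighbouring regions and sex-linked genes), which gives 65 relations over the 19 mice. Of these, 7 passed by Pearson r and 2 by both r and rho, after adjustment over the 65, and both of the latter concerned Pnoc. These permutations did not allow for the removed genotype means either, so that the p-values tend to be too low and the count of 7 may be too high. Pnoc rose and fell with the mean log2 level of 8 GABA interneuron markers, Pvalb, Sst, Npy, Nos1, Th, Calb2, Lhx6 and Kit (r = 0.759, rho = 0.76, permutation p = 0.00016 and 0.00033, adjusted p = 0.00585 and 0.0107), and with that of thalamus markers, such as Tcf7l2 and Prkcd (r = 0.749, rho = 0.775, permutation p = 0.00018 and 0.00014, adjusted p = 0.00585 and 0.0091). Without the farthest mice r was 0.771 and 0.654, and without KI-96 replicate 4 it was 0.714 and 0.704. The interneuron and thalamus lists share Calb2. Not every interneuron marker went with Pnoc. In KI-96 replicate 4, Sst and Npy were the highest of the KI-96 mice (170 and 40.0 CPM), but Kit and Nos1 were the lowest (37.8 and 63.3 CPM). In KI-571 replicate 1, the mouse with the least Pnoc, Sst and Npy were the lowest of the KI-571 mice (22.9 and 7.78 CPM). Kit and Nos1 were the highest there (51.9 and 94.1 CPM). Thalamus markers summed to 290 CPM in KI-96 replicate 4, the mouse with the most Pnoc, and to between 73.6 and 185 CPM in the other 18 mice, and none of the 5 markers was at 0. The part of neighbouring tissue in the Pnoc level was not tested.

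The other 5 relations passed by r alone, and with p-values that tend to be too low, those near the threshold are not secure. Oprd1 varied with the projection neuron markers (r = 0.638, permutation p = 0.00293, adjusted p = 0.0379; rho = 0.619, adjusted p = 0.0699) and against the GABA interneuron markers (r = -0.699, permutation p = 0.00073, adjusted p = 0.0153; rho = -0.584, adjusted p = 0.0791). Pnoc varied against the projection neuron markers (r = -0.615, permutation p = 0.00473, adjusted p = 0.0439; rho = -0.544, adjusted p = 0.103). Oprd1 and Pnoc were thus opposite in their relation to these lists, as they were to each other, and the relations are not independent of one another. Oprm1 varied against the claustrum and endopiriform markers (r = -0.698, permutation p = 0.00094, adjusted p = 0.0153; rho = -0.64, adjusted p = 0.0663), and r was -0.593 without WT replicate 3 and KI-571 replicate 2, the mice with the most cortical markers. Oprk1 varied against the endothelial markers (r = -0.634, permutation p = 0.0035, adjusted p = 0.0379; rho = -0.639, adjusted p = 0.0663). Both sides of each relation come from the same libraries and are shares of the same total.

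**Figure D5:**
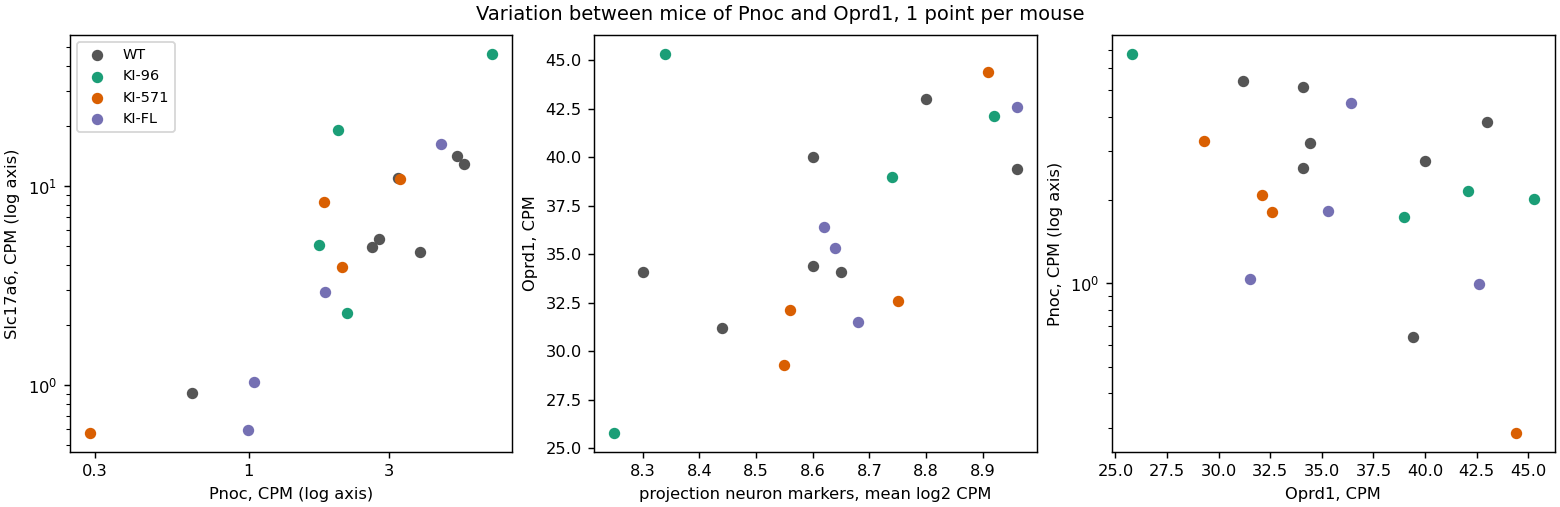
Pnoc against Slc17a6 (both in CPM on log axes), Oprd1 in CPM against the mean log2 CPM of 10 projection neuron markers, and Pnoc against Oprd1, with 1 point per mouse coloured by genotype and the genotype means not removed. KI-96 replicate 4 is the point with the highest Pnoc (6.74 CPM), the highest Slc17a6 (45.8 CPM) and the lowest Oprd1 (25.8 CPM).

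The tested genes whose deviations were most like those of each gene over the 19 mice were also listed, as a description. For Pnoc they were Nrip3 (r = 0.918), Slc17a6, the vesicular glutamate transporter gene of thalamic neurons (0.893), and Kcnc2, a fast potassium channel gene (0.887). Slc17a6 itself ranged from 0.576 to 45.8 CPM, highest in KI-96 replicate 4 and lowest in KI-571 replicate 1, the mice with the highest and lowest Pnoc. For Oprd1 they included Plcb1 (0.941) and Foxp1 (0.929), the latter a transcription factor gene on the projection neuron list.

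For Oprm1 they were Pde1c (r = 0.93), Cbx5 (0.917) and Syt10 (0.914). Leaving out the 2 mice farthest from the Oprm1 median gave 0.879, 0.888 and 0.851. For Oprl1 they were Paox (0.868), Ddx25 (0.833) and Vangl2 (0.83). Oprk1 had the least close neighbours, with Dcx, a gene of migrating young neurons, at 0.783, 1700018G05Rik at 0.768 and C330011M18Rik at 0.747. These r values are the highest among all tested genes and were chosen for being so, and they carry no test.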

How the data were processed

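Counts of reads on genes, not normalized, were deposited by the authors for the striatum of 19 mice. Reads had been trimmed with BBduk, aligned to GRCm38 with STAR and counted with HTSeq (versions, annotation and strand setting not given in the sources used here). The 4 table columns of no sample and the 5 HTSeq summary lines were not used as samples or genes; reads outside annotated genes were 11.1% to 24.2%. Names were matched for 54079 of 54232 genes, and lengths came from GENCODE M21. In R 4.3.3, genes were filtered with filterByExpr (minimum count 10, minimum total 15), scaled by TMM and fitted in 1 edgeR 4.0.16 model with a coefficient per genotype; the quasi-likelihood F-test was two-sided, with Benjamini-Hochberg adjustment over 18521 genes in each comparison and a threshold of 0.05. The study's methods used DESeq2 with sacrifice batch and without 1 WT sample; neither could be taken from the labels, so all 7 WT mice were kept. CPM used TMM-scaled totals, and log2 CPM a prior count of 2. Correlations used 100000 permutations of mice, two-sided, across genotypes and without allowance for the removed genotype means. No 2 samples of a genotype agreed within sampling noise (lowest chi-square per degree of freedom 5.72). The procedure was tested on simulated data.

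The 5 genes and all lists were chosen with earlier results of these data known. Named were the 5 genes, Penk, Pdyn and Pomc, listed genes past the threshold, otherwise the gene of each pathway list with the smallest p against WT, the 3 genes most like each of the 5 (1 of these is not reported here), and genes overlapping them. Alternatives were DESeq2 1.42.0, its size factors in edgeR, no filter, a replicate block, Xist as a covariate, WT replicates 1 to 4 alone, and each mouse left out.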

Additional observations from a re-analysis of the deposited data

Results flagged for a closer look

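Of 20 groups of mice (5 genes in 4 genotypes), 1 held a mouse far from the rest by Dixon's test, and chance alone flags about 1 in 20 such groups. Pnoc was at 6.74 CPM in KI-96 replicate 4 and between 1.73 and 2.16 CPM in the other KI-96 mice, a gap of 0.915 of the whole range. In the same mouse, thalamus markers summed to 290 CPM, GABA interneuron markers to 472 CPM and projection neuron markers to 4560 CPM, against 82.4 to 185, 246 to 402 and 5010 to 7350 CPM in the other KI-96 mice, and Oprd1 and Oprk1 were at their lowest (25.8 and 17.3 CPM). The part of these in the Pnoc value was not tested. Without this mouse the log2 fold change of Pnoc in KI-96 against WT was -0.78 in place of -0.08, and it did not pass either way (adjusted p = 0.61 and 0.984).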

How the results depend on the processing

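The number of the 5 genes past the threshold was 0 in all 172 recomputed counts, and the lowest adjusted p over all settings was 0.256 (Oprm1 in KI-96 against WT without KI-96 replicate 4). Of 195 log2 fold changes under other settings 9 turned their direction, all near 0 and none past the threshold; DESeq2, its size factors and the missing filter turned none. With the replicate number as a block, Oprd1 in KI-96 against WT was -0.0235 and Oprk1 in KI-FL against WT 0.082, and 0 of the 5 genes were called in each comparison. Same-numbered mice of different genotypes did not in general vary together. Of 24 such pairs, 5 had r over 0.1 (-0.128 to 0.29), and the median r was -0.00479 against -0.00494 for differently numbered pairs. Whether some numbers shared a batch was not tested. With Xist as a covariate, Oprd1 was -0.0232 in KI-96 against WT and -0.00502 against KI-FL, and Oprl1 was 0.0295 in the mean of the KI genotypes against WT and 0.069 in KI-96 against KI-FL. With WT replicates 1 to 4 alone, Oprd1 (-0.0149) and Pnoc (0.0118) in KI-96 and Oprk1 (0.0734) in KI-FL turned. With genotype means kept, the relation of Oprd1 and Pnoc weakened to r = -0.514 and that of Oprk1 and Pnoc turned to 0.00231. The cause was not tested.

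With each mouse left out in turn, 32 of 665 log2 fold changes turned their direction. Against WT, the ranges of these were -0.0444 to 0.203 (Oprd1), -0.0206 to 0.12 (Oprl1) and -0.78 to 0.117 (Pnoc) in KI-96, -0.1 to 0.0583 (Oprd1) and -0.165 to 0.0546 (Oprk1) in KI-FL, and -0.0618 to 0.0391 (Oprd1) and -0.0956 to 0.0333 (Oprl1) in the mean. In KI-96 against KI-571 it was -0.306 to 0.0556 (Oprk1), in KI-96 against KI-FL -0.171 to 0.524 (Oprm1), -0.0273 to 0.209 (Oprd1), -0.148 to 0.00851 (Oprl1) and -0.105 to 1.33 (Pnoc), and in KI-571 against KI-FL -0.208 to 0.0209 (Oprd1) and -0.615 to 0.549 (Pnoc). The lowest counts behind a value were 6 reads for Pnoc and 34 for Oprm1.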
